A study of Mus musculus with 15 samples.

Results

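The 20 peaks of open chromatin described here were closed in a single tumour cell clone and open in all others. They were the autosomal peaks chosen by their level, with less than 1 CPM (the read count scaled to library size by TMM) in exactly 1 of 13 ATAC-seq libraries and 8 CPM or more in each of the other 12. The rule found 20 such peaks among 66381 autosomal peaks, of 67945 in all. Each library came from a different clone of mouse pancreatic tumour cells, grown as a subcutaneous tumour in C57BL/6 mice without treatment, from which 50000 tumour cells were sorted 3 weeks after implantation. The labels put 6 clones in the T cell high class (6620c1, 7160c2, 2838c3, 6499c4 and, with no closed peak, 6421c2 and 6555c3) and 7 in the T cell low class (6556c3, 6694c2, 6499c3 and, with no closed peak, 6422c1, 2699c4, 6419c5 and 6419c1). The labels give neither the genotype of the tumours of origin nor the age of the host mice, and each clone is represented by 1 library. The 2 T cell intermediate samples were not analysed here.

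ATAC-seq marks DNA that a transposase can reach, which in tumour cells lies mostly at the start sites of active genes and at enhancers. A peak can go missing in a clone because the chromatin there is closed or because the DNA itself is gone, and a count per peak gives the same low value for either. In pancreatic cancer the best known loss of DNA takes out Cdkn2a, a tumour suppressor gene that encodes an inhibitor of cyclin-dependent kinases and the Arf protein, often together with its neighbours Cdkn2b, another such inhibitor, and Mtap, an enzyme of methionine salvage.

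Of the 20 closed peaks, 4 contained an annotated start site: those of Mfsd14b, a member of the major facilitator family of transporters, and Wfdc2, a small secreted protein, both closed in clone 6620c1; that of Col27a1, a fibrillar collagen chain, closed in 7160c2; and that of the long noncoding RNA Gm52506, closed in 6556c3. The gene record of Col27a1 begins 1173 bp before its closed peak. Promoter sequences of the 4 start sites are shown because at these places the closed peak held a start site. Each is the 250 bases before the start site, 5′ to 3′ on the gene's strand, from RefSeq on GRCm38.p6, the assembly that mm10 represents. Capitals mark matches on either strand to any of 4 motifs. These were GGGCGG, the letters of the GC box of many housekeeping promoters, and CCAAT, the box that the NF-Y factor binds. The others were TGANTCA, the usual site of the Fos and Jun factors, and TATAAA, the classical core promoter element. No motif overlapped another.
Mfsd14b, chr13:65112983-65113232, minus strand: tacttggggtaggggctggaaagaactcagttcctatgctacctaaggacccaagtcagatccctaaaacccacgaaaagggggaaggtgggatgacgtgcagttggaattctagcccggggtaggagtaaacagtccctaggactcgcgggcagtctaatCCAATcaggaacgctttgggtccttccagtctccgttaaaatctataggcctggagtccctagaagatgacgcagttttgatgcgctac
Wfdc2, chr2:164562465-164562714, plus strand: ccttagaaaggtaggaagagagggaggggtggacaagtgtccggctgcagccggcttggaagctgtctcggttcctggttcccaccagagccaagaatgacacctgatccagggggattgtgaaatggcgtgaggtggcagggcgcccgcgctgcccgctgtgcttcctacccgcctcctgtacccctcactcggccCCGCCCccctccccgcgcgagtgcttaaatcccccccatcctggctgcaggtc
Col27a1, chr4:63215162-63215411, plus strand: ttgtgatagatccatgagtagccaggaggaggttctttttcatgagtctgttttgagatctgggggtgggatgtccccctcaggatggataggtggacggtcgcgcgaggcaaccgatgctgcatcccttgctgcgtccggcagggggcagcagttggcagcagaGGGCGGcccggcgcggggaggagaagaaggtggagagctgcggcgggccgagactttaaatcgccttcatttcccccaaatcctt
Gm52506, chr2:27572944-27573193, plus strand: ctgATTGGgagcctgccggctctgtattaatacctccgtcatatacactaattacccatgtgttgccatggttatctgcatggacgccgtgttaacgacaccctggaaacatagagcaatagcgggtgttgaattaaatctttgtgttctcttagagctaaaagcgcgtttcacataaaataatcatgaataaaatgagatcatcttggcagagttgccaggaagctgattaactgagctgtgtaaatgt
None of the 4 motifs occurred in all 4 stretches. Mfsd14b and Gm52506 each held 1 CCAAT box, which 33.8% of 32817 RefSeq promoters of the same length hold, and Wfdc2 and Col27a1 each held 1 GC box, which 32.7% hold. None of the 4 held the letters of the Fos and Jun site (in 6.75% of promoters) or the TATA box (in 12.4%). They ran from 42.0% GC at Gm52506 to 64.8% at Wfdc2, with 8 to 15 CG pairs, against a median of 52.4% GC and 6 CG pairs over all promoters.

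The closed peaks fell in 7 of the 13 clones. Clone 6556c3 held 7 of them, 7160c2 held 4, 6620c1 held 3, 6499c3 and 6694c2 held 2 each, and 2838c3 and 6499c4 held 1 each; the other 6 clones held none. Counted over every clone and every autosomal peak that reached 8 CPM in the other 12 libraries (204225 pairs of clone and peak), 0.00979% were closed, which is the rule's own yield. By clone this share was 0.0438% in 6556c3, 0.0246% in 7160c2, 0.0192% in 6620c1, 0.0128% in 6694c2, 0.0126% in 6499c3, 0.00646% in 6499c4 and 0.00638% in 2838c3. The values of all libraries chose these peaks, so their levels are given as a description and no test is made of the closed clone against the others. In sorted cells read as a bulk, fewer cells with an open site and less access per cell cannot be told apart.

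Depth differed between the libraries and moved with these numbers. Total counts in peaks ran from 968296 in 7160c2 and 1030616 in 6556c3 to 7369228 in 6419c1, and the 2 shallowest libraries held 11 of the 20 closed peaks. At 8 CPM a peak had 8.02 reads in 7160c2 and 56.0 in 6419c1. With all libraries thinned at random to the total of 7160c2, 54 peaks met the rule, of which 9 were among the 20; 6499c3 then held 10, 2838c3 held 9 and 6556c3 held 7. Without both shallow libraries 13 peaks met it, 8 of them among the 20. Markers of other cells were checked by the highest peak within 1 kb of a gene end. All 5 epithelial markers had a peak (summed level 77.8 to 208.0 CPM), as did 3 of 5 leukocyte markers (17.4 to 72.5 CPM; no peak at Cd52 or Laptm5), 2 of 5 macrophage markers (7.15 to 26.7 CPM) and 1 of 5 fibroblast markers (Col1a1, 16.8 to 37.9 CPM), while none of 5 T cell or 5 endothelial markers had one.

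**Figure D1:**
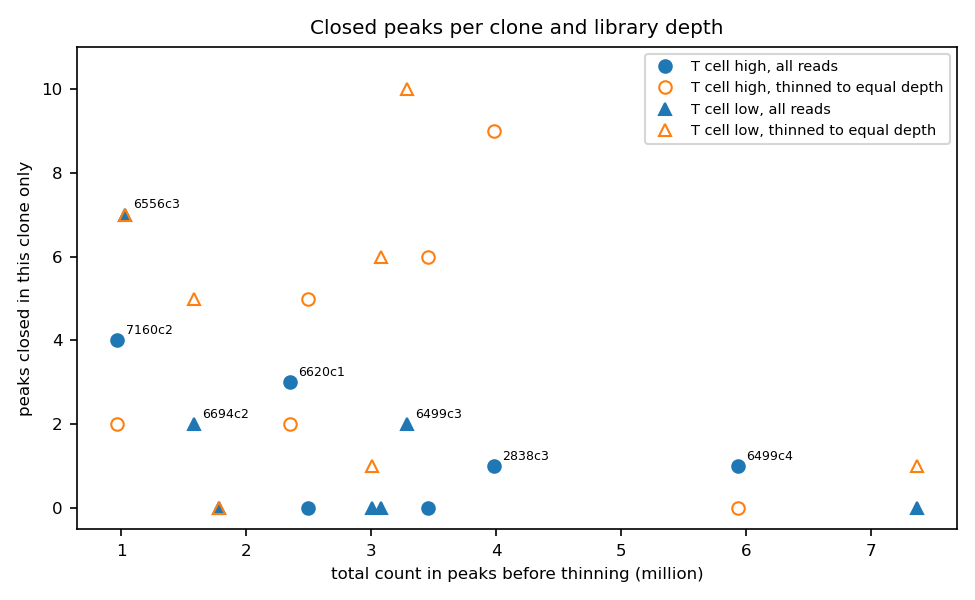
Peaks closed in 1 clone only (vertical axis) against the total count in peaks of that clone's library (horizontal axis), for T cell high clones (circles) and T cell low clones (triangles), with all reads (filled) and after thinning every library to equal depth (open). With all reads 6556c3 and 7160c2 lie at the top left with 7 and 4 peaks, and after thinning 6499c3 and 2838c3 rise to 10 and 9.

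In the closed clone 11 of the 20 peaks had 0 reads, 3 had 1 read, 4 had 2, 1 had 3 and 1 had 6. The median level of the other 12 clones would have given 13.5 to 118.8 reads there, and under 20 reads at 10 of the 20 peaks, all in 6556c3 or 7160c2. Most closed peaks were of modest height: the median of the open clones was 12.1 to 51.3 CPM, and 18 of 20 lay under 25 CPM, against 43.1% of the 19245 autosomal peaks that reached 8 CPM in at least 12 libraries. Their median length was 807 bp, against 1093 bp in those peaks. A start site lay inside 20% of the closed peaks and inside 41.7% of the 18490 of those peaks whose chromosome had listed start sites. The start-site reference listed none on chromosome 18. The record of a protein-coding gene was overlapped by 65.0% of the closed peaks, against 73.3% of the 19245. Height and length are tied to the rule, so these shares are descriptions.

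**Figure D2:**
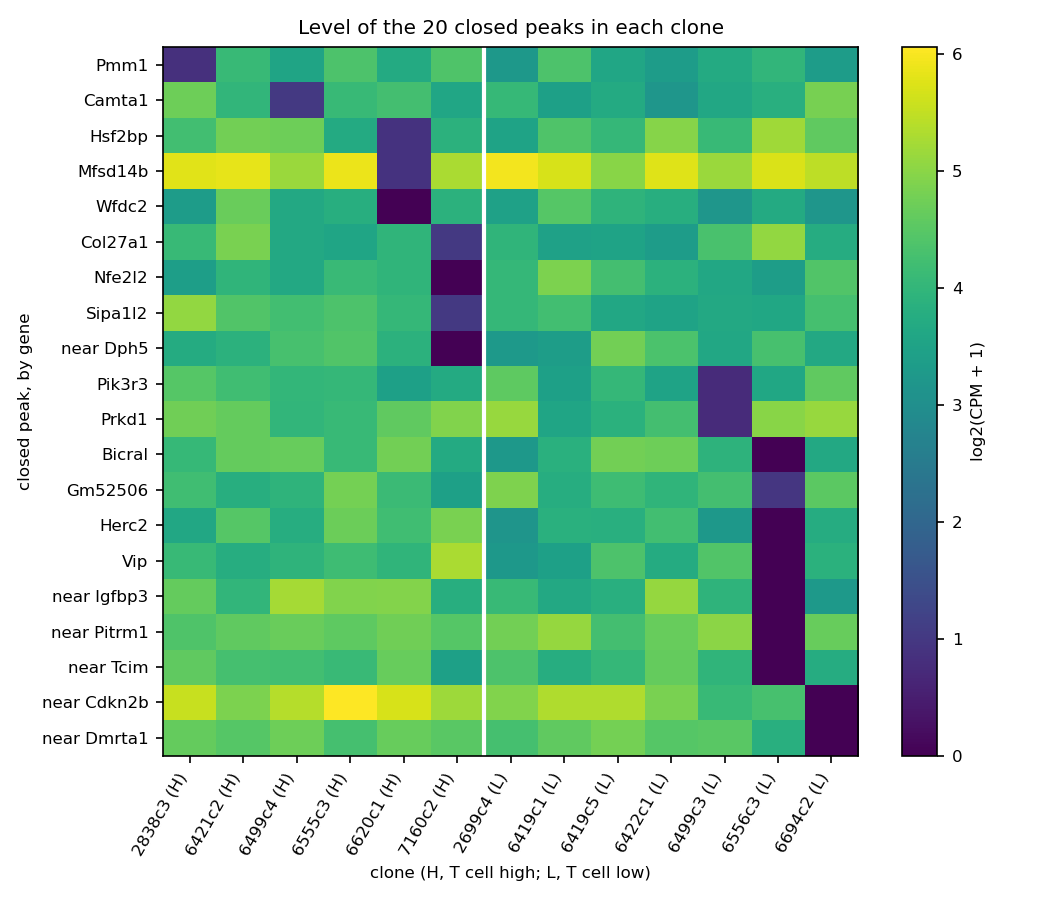
Level of the 20 closed peaks (rows, by overlapped or nearest gene) in the 13 clones (columns, T cell high left of the white line, T cell low right of it) as log2(CPM + 1). Each row has 1 dark cell, the closed clone, and the dark cells gather in 6556c3 with 7, 7160c2 with 4 and 6620c1 with 3.

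**Figure D3:**
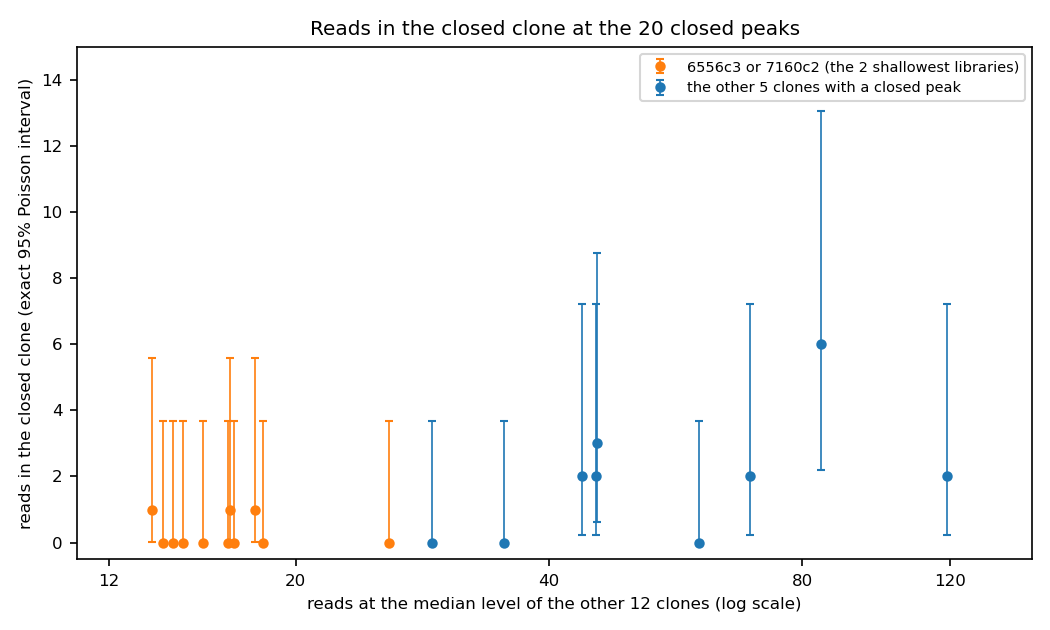
Reads in the closed clone (vertical axis, with exact 95% Poisson intervals, which cover counting error only) against the reads that the median level of the other 12 clones would give in that library (horizontal log axis), 1 point per closed peak. The 11 points of 6556c3 and 7160c2 sit between 13.5 and 25.8 on the horizontal axis, and the other 9 between 29.0 and 118.8.

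The only closed peaks that lay together along a chromosome were the 2 of clone 6694c2. They lay on chromosome 4, past Cdkn2a and Cdkn2b. A run was defined as 2 or more peaks closed in the same clone with at most 500 kb between neighbours; 2 of the 20 peaks (10%) were in runs and 18 were not. The first peak of the run, chr4:89478542-89479456, had 0 reads in 6694c2, and 16.1, 37.2 and 65.8 CPM as the lowest, median and highest of the other 12 clones. Taking 0 reads to allow up to 1.85 CPM (3 reads, a 1-sided limit), it was at least 20.1-fold lower. The 2-sided 95% Poisson interval reaches higher, to 2.28 CPM or 6.12% of the median. The second, chr4:89507344-89508817, also had 0 reads, against 13.1, 21.9 and 26.9 CPM, at least 11.8-fold lower. The rule requires 8 CPM or more in each of these 12 clones, so none could come near 0. Both peaks lie in the record of the long noncoding RNA Gm12610, between Cdkn2b and Dmrta1, a transcription factor of the DM-domain family. The first is 167510 bp from Cdkn2b and the second 179381 bp from Dmrta1.

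These 2 peaks lay in a longer stretch of low peaks. Going out from them on each side, every peak below 0.5 times the median of the other clones was counted as low, whatever its height (a definition chosen after the values were seen). In 6694c2 this gave 31 consecutive low peaks over 257.8 kb, from 89257656 to 89515408 on chromosome 4. They held 10 reads in all where the median of the other 12 clones would have given 649.2, and 27 of the 31 had 0 reads. Their summed level was 6.18 CPM in 6694c2, against 238.0 to 593.0 CPM in the other clones (median 401.3 CPM), so that 1.54% was left. On the Dmrta1 side the next peak had 17.3 CPM against a median of 20.6 CPM. On the Mtap side the next peak had 2.47 CPM in 6694c2 against a median of 2.75 CPM, a low level at which little can be read, and the one after it, inside Mtap, had 13 CPM against 14 CPM. The start-site peak of Mtap, farther out, had 33.4 CPM in 6694c2, against 17 to 43 CPM elsewhere.

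The start sites of both tumour suppressor genes were inside the stretch but missed the rule. Clone 6556c3 lacked both peaks too, and at the Cdkn2b peak 6694c2 itself was not below 1 CPM. At the Cdkn2a start-site peak, chr4:89294181-89295588, 6694c2 and 6556c3 both had 0 reads, and the other 11 clones had 20.1 to 64.5 CPM. It was the only autosomal peak closed in exactly 2 clones and open, at 8 CPM or more, in all the rest. No peak was closed in 3 or more clones and open in all the rest. At the Cdkn2b start-site peak 6694c2 had 2.47 CPM and 6556c3 0 reads, against 21.4 to 81.7 CPM in the other 11. Of the 31 peaks only 4 reached 8 CPM in all other 12 clones: the 2 closed peaks and 2 more at 1.24 CPM in 6694c2.

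In 6556c3, 5 consecutive peaks over 55.3 kb, from the Cdkn2a start-site peak to a peak past that of Cdkn2b, held 2 reads where the median of the 11 clones other than 6694c2 would have given 130.5. Their summed level was 1.87 CPM, against 55.1 to 175.0 CPM in those 11 clones. At 4 of the 5 peaks 6556c3 had 0 reads, and the other had 1.87 CPM against a median of 3.48 CPM. At the other 26 of the 31 peaks, 6556c3 had a summed level of 236.1 CPM, 81.4% of the median of 290.2 CPM and inside the range of 208.6 to 418.0 CPM, and 6694c2 had 3.71 CPM. Single peaks among these 26 were at 0 reads in both clones in 4 cases. Summed leukocyte markers were at 38.9 CPM in 6694c2 and 43.9 CPM in 6556c3, inside the range of the other clones. Whether DNA or only accessibility was lost cannot be told apart from counts in peaks.

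Camta1, which encodes a calmodulin-binding transcription activator, had the other low stretch, in 6499c4. The closed peak lies inside the gene record, chr4:151347336-151348125, and had 6 reads (0.995 CPM) against 8.15, 14 and 27.2 CPM as the lowest, median and highest of the others, a 14.1-fold difference. It did not meet the rule with DESeq2 size factors or total counts only, and its values lay next to both thresholds. This library is deep, and the median level would have given 84.3 reads. In all, 5 consecutive peaks inside Camta1, over 76.3 kb, were low together by the same definition: they held 45 reads where 555.3 stood at the median. Their summed level was 7.46 CPM in 6499c4 and 44.8 to 121.0 CPM in the other 12, so that 8.1% was left. Both boundaries are weak, since the peaks that set them had 2.32 CPM against a median of 4.61 CPM on the left and 1.33 CPM against 2.11 CPM on the right. The strongest of the 5 had 4.64 CPM, against 24.1 to 59.8 CPM elsewhere. The start-site peak of Camta1 lay outside the stretch and had 89.6 CPM, just under the range of the others (91.6 to 193.4 CPM).

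Clone 6499c3 shares the number before the letter c with 6499c4 and is called its sister from its name; the labels do not state that both came from 1 tumour. At the closed Camta1 peak it had 11.4 CPM, against a median of 14.9 CPM in the other 11 clones. In the reverse direction, at the 2 peaks closed in 6499c3, the sister 6499c4 had 14.8 CPM at Prkd1 (median of the other 11, 23.6 CPM) and 15.1 CPM at Pik3r3 (15.4 CPM). The rule requires the sister to be open at each of these 3 peaks. The other pair with a shared number, 6419c1 and 6419c5, held no closed peak.

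**Figure D4:**
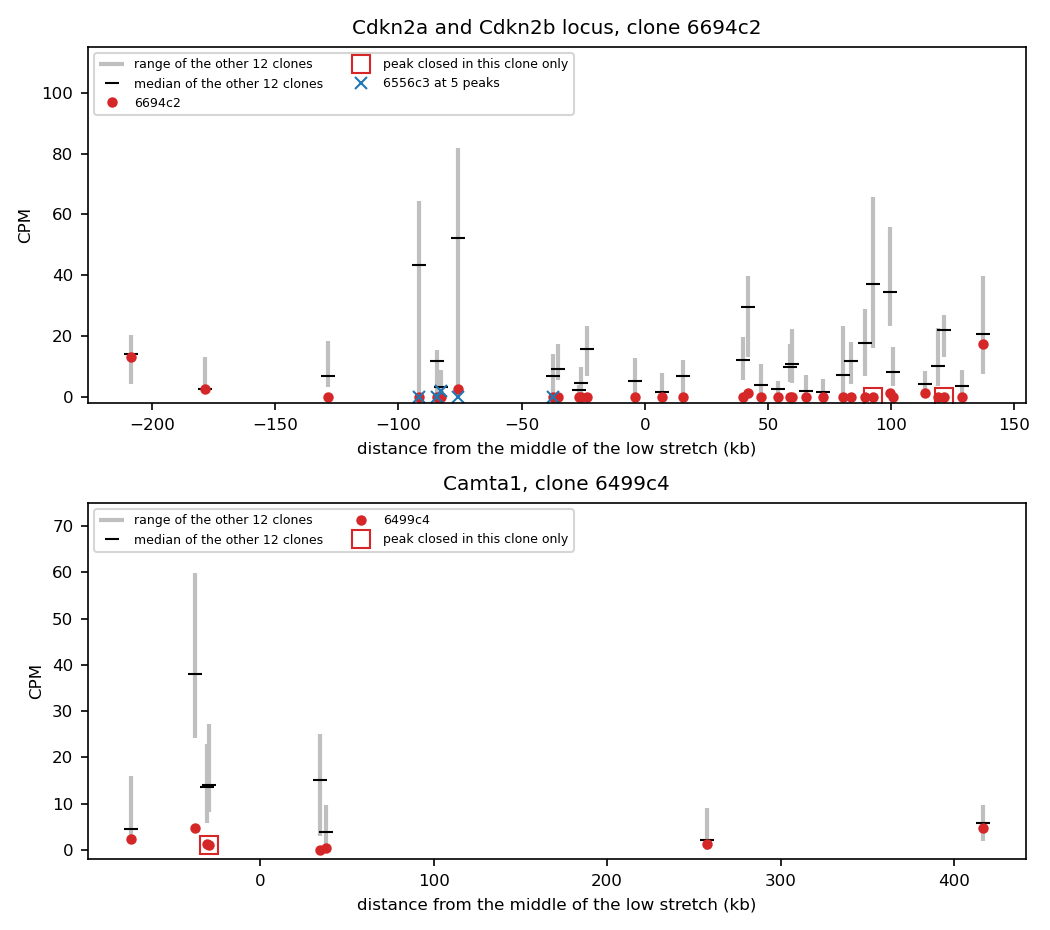
Level in CPM (vertical axis) of consecutive peaks against distance from the middle of each low stretch in kb, at the Cdkn2a and Cdkn2b locus for 6694c2 (top) and inside Camta1 for 6499c4 (bottom). Red points are the named clone, squares its closed peaks, grey bars the range and black ticks the median of the other 12 clones, and blue crosses 6556c3 at 5 consecutive peaks. The red points of the 31 low peaks at the top lie between 0.0 and 2.47 CPM over 257.8 kb and those of the 5 at the bottom between 0.0 and 4.64 CPM over 76.3 kb; the points outside these spans are peaks not below 0.5 times the black tick.

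The peaks next to the closed ones were compared with those next to other open peaks. The peak next to a closed peak on either side reached a median of 4 CPM in the other clones in 31 cases, and 11 of these 31 (35.5%) were below 0.5 times that median in the closed clone. Beside all peaks open in at least 12 libraries the share was 10.7%, and by clone it was 14.9% in 6556c3 and 16.1% in 7160c2. Of the 11, 5 belonged to the Cdkn2 and Camta1 stretches. Without these stretches 6 of 26 (23.1%) were below 0.5 times the median, at 6 of the other 17 closed peaks. With no minimum on the level of a neighbour, the closed peak was the only low one for 9 of these 17, while 7 had 1 more low peak beside them and the one in Hsf2bp had 3 consecutive low peaks over 20.6 kb. The other peaks of the 18 genes at or nearest to the closed peaks that had any were summed too: the sum was the lowest of the 13 clones in 4 and inside the range of the others in 13. The same share over all genes was not computed. Cdkn2b was among the 13, with 2.47 CPM in 6694c2 against a median of 67.3 CPM, because the lowest other clone had 1.87 CPM. The 4 were Hsf2bp (47.5 CPM, lowest other clone 62.3 CPM), Camta1 (141.5 against 187.5 CPM), Tcim (91.5 against 95.7 CPM) and Wdr5 (37.3 against 54.4 CPM).

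Wfdc2 in 6620c1 was such a single peak. The peak at its start site, chr2:164562281-164563075, had 0 reads, against 8.04, 12.5 and 24.5 CPM as the lowest, median and highest of the others, at least 9.66-fold lower. The next peak, 278 bp to the right, had 9.07 CPM against a median of 9.60 CPM, and the other peaks at Wfdc2 summed to 29.4 CPM against 27.6 CPM. Of the peaks at Wfdc2, the one at the start site was at 0 and the sum of the rest was not below the median of the other clones. The Wfdc2 peak did not meet the rule with DESeq2 size factors, total counts only or TMM without a filter, since its lowest open value lay next to the threshold.

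Mfsd14b in 6620c1 was the peak with the highest open level of the 20. Its start-site peak, chr13:65112066-65113454, had 2 reads (0.864 CPM), against 30.8, 51.3 and 61.3 CPM as the lowest, median and highest of the others; 118.8 reads stood at the median, so 1.68% was left (95% Poisson interval 0.204% to 6.08%, counting error only). The peaks next to it are far, 672.1 kb to the left with 11.2 CPM (median 13.4 CPM) and 127.0 kb to the right with 43.2 CPM (69.2 CPM). An interval of 800.5 kb therefore holds no other peak that could show how far the low level extends. The third peak of this clone, chr17:31982380-31983534 inside Hsf2bp, a gene of meiotic recombination, had 2 reads (0.864 CPM) against 10.4, 18.9 and 35.5 CPM, and the left neighbour was also low, at 6.05 CPM against 13.9 CPM.

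In 7160c2 the closed peak with the best known gene was inside Nfe2l2, which encodes the transcription factor Nrf2 of the antioxidant response. The peak, chr2:75685290-75686015, had 0 reads against 9.33, 14.6 and 28.3 CPM in the others, at least 4.89-fold lower. The start-site peak of Nfe2l2 was open in that clone, with 115.7 CPM against 92.9 to 156.9 CPM. The pattern was the same at Sipa1l2, a GTPase-activating protein for Rap: the closed peak, chr8:125568361-125569167, had 1 read (median of the others 16.6 CPM), and the start-site peak 62 bp away had 49.9 CPM, inside the range of 24.5 to 87.5 CPM. At Col27a1 the closed start-site peak, chr4:63215182-63215781, had 1 read (0.997 CPM) against 9.17, 13.5 and 32.7 CPM, while the peak 228 bp to the right had 33.9 CPM (median 44.6 CPM). The gene record begins 1173 bp before this closed peak. The last peak of this clone, chr3:115815378-115816431, 71685 bp from Dph5, a gene of diphthamide synthesis, had 0 reads against a median of 13.9 CPM, with the left neighbour at 3.99 CPM (10.8 CPM).

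The 7 peaks of 6556c3 lay on 7 chromosomes. The highest, chr13:6255321-6256550, lies 291572 bp from Pitrm1, a mitochondrial protease, and had 0 reads against 18.1, 24.1 and 33.3 CPM, at least 8.61-fold lower; its left neighbour had 9.33 CPM, under the lowest of the others (10.1 CPM, median 15 CPM). In 2 others the neighbours on both sides were near the level of the other clones: in Bicral (chr17:46876289-46877092; median 15.8 CPM), a subunit of a chromatin-remodelling complex, where the neighbours had 14.9 and 9.33 CPM (medians 15.1 and 10.1 CPM), and near Igfbp3 (chr11:7239067-7239753; median 15.5 CPM), a binding protein for insulin-like growth factors, where they had 29.9 and 7.47 CPM (medians 31.5 and 9.95 CPM). The other 4 were in the part of Vip, a neuropeptide gene, farthest from its start (chr10:5646260-5647003; 14.5 CPM), in Herc2 (chr7:56066061-56066712; 13.3 CPM), a ubiquitin ligase, near Tcim (chr8:24405208-24405726; 17 CPM), a regulator of transcription, and at the start of Gm52506 (chr2:27572618-27573605; 1 read against 16.7 CPM), 36083 bp from Wdr5, a subunit of histone methyltransferase complexes. Each of these 4 had 1 low neighbour, at 0.378 to 0.452 times the other clones.

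The remaining 3 peaks were in deeper libraries. In 6499c3 the peak in Prkd1, protein kinase D1, chr12:50544256-50545472, had 2 reads (0.670 CPM) against 10.8, 23.2 and 34.0 CPM, where 69.3 reads stood at the median; the start-site peak of Prkd1 had 9.72 CPM, inside the range of 1.59 to 26.7 CPM. The peak in Pik3r3, a regulatory subunit of phosphoinositide kinase, chr4:116300600-116301604, also had 2 reads, against 9.85, 15.2 and 22.9 CPM, with the start-site peak at 63.0 CPM against 19.8 to 66.2 CPM. In 2838c3 the peak in Pmm1, phosphomannomutase, chr15:81953839-81954645, had 3 reads (0.794 CPM) against 8.35, 12.1 and 19.9 CPM, and the start-site peak of Pmm1 had 33.1 CPM against 22.4 to 56.6 CPM. At all 3 genes the start-site peak was inside the range of the other clones. At Pik3r3 the next peak to the right, 70164 bp away, was low too, at 0.67 CPM in 6499c3 against a median of 3.27 CPM. Together these 2 peaks held 4 reads over 71.4 kb where 54.0 stood at the median. The peaks next to the closed Prkd1 peak are far, 270449 bp to the left and 102813 bp to the right. How far the low level extends between them cannot be read.

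**Figure D5:**
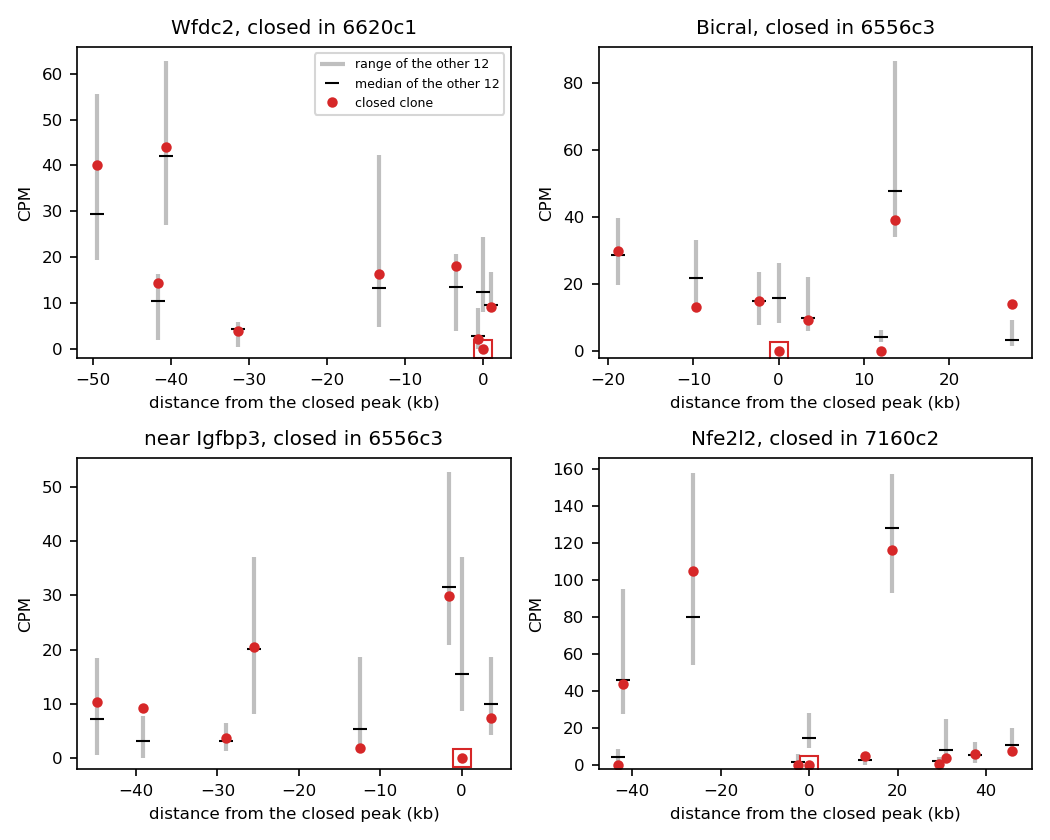
Level in CPM (vertical axis) of all peaks within 50 kb of 4 closed peaks against distance in kb, for the closed clone (red points, the closed peak in a square), with the range (grey bars) and median (black ticks) of the other 12 clones. At Wfdc2, Bicral and Igfbp3 the peaks on either side of the square, at 9.07, 14.9 and 29.9 CPM among them, lie within the grey bars, and at Nfe2l2 the start-site peak stands at 115.7 CPM.

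Neighbouring peaks were also summed over wider windows. Peaks within 1 Mb to each side, 22 to 123 of them, summed to 0.616 to 1.24 times the median of the other 12 clones (median 0.814), and for none of the 20 was the sum below 0.5 times it, against 0.309% over all autosomal peaks and clones. Within 200 kb 3 of 20 were below 0.5 times it, namely both peaks of 6694c2 at 0.128 and 0.148 and Camta1 at 0.112, against 1.71% over all; within 5 Mb none was, against 0.00278%. The closed clone was the lowest of the 13 in 9 of 20 windows of 1 Mb (45%), against 7.69% over all autosomal peaks and clones, and above the median in 5. By clone the share over all autosomal peaks was 16% in 6556c3, 13.1% in 7160c2, 9.57% in 6499c3 and 7.63% in 6620c1. It was 7.07% in 2838c3, 5.06% in 6694c2 and 2.73% in 6499c4. In 8 of 20 the sum was under the 5th percentile of all autosomal peaks of that clone, a measure added after the values were seen: at both peaks of 6694c2, which share a window, and at Mfsd14b, Hsf2bp, Gm52506, Dph5, Camta1 and Tcim. A single clone against 12 allows no permutation p under 0.0769.

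No difference in the count of closed peaks between the groups was detectable. T cell high clones held 9 in all, 1.5 ± 1.64 per clone (SD, n = 6), and T cell low clones 11, 1.57 ± 2.57 per clone (SD, n = 7), with p = 1.0 in a two-sided exact permutation test. The 7 peaks of 6556c3 and the 4 of 7160c2, the 2 shallow libraries, fall in different groups.

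Levels at the closed peaks were also compared between the T cell groups among the clones in which the peaks were open. The rule did not use the group labels, but it required 8 CPM or more in each of these 12 clones, which limits how far their levels can differ, so the values below are a description. The classes were compared across all peaks by edgeR's quasi-likelihood test with Benjamini-Hochberg adjustment, leaving out the closed clone of the peak in question, since its value had chosen the peak. None of the 20 had an adjusted p under 0.05 (lowest 0.700), 2 had an unadjusted p under 0.05, and log2 fold changes ran from -0.35 to 0.63 (median 0.14). Over all 13 libraries and 59252 peaks the same test called 0 peaks (0%) with an adjusted p under 0.05 and 4046 (6.83%) with an unadjusted p under 0.05, and the median log2 fold change was 0.01. In the 7 fits that left out 1 clone each, the share with an unadjusted p under 0.05 was 10.7% without 2838c3, 5.37% without 6499c4, 5.40% without 6620c1, 7.02% without 7160c2, 6.66% without 6499c3, 6.27% without 6556c3 and 6.48% without 6694c2. DESeq2 called 48 of all peaks (6 without 6555c3 and 517 without 2838c3, the range with 1 library left out), and edgeR called 42 without 2838c3 (0.0706%). By DESeq2 none of the 20 passed adjustment and 3 had an unadjusted p under 0.05, against 7.77% of all 59252 peaks. At the first closed peak of 6694c2, 167510 bp from Cdkn2b, T cell high clones had 44.5 ± 13.1 CPM (SD, n = 6). The T cell low clones other than 6694c2 had 28.5 ± 10 CPM (SD, n = 6). The difference was 0.63 ± 0.26 on the log2 scale (standard error) with an adjusted p of 0.731 by edgeR, and the groups overlapped. At Sipa1l2 the means were 21.2 ± 6.74 CPM (SD, n = 5) and 13.8 ± 3.37 CPM (SD, n = 7), with an adjusted p of 0.700 by edgeR.

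Around the closed peaks lay 16 protein-coding genes, overlapped or with a gene end within 50 kb, of 11492 around all peaks open in at least 12 libraries. None of them was among 593 genes in 15 lists (among them tumour suppressors and pancreatic cancer drivers, antigen presentation, interferon response, chemokines, epithelial and mesenchymal identity), of which 346 had such an open peak. With 346 against 11492 genes, a count of 0 among 16 says little. The 50 kb limit also left out Cdkn2b, 167510 bp from a closed peak of 6694c2, though its start-site peak lay inside the low stretch.

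The thresholds cut through a continuous range. The highest value of a closed clone was 0.997 CPM, and 88 more peaks had their lowest value between 1 and 2 CPM with the next at 8 CPM or more, the nearest at 1.06 CPM. The lowest value of an open clone was 8.01 CPM, at Herc2, and 324 more peaks had 1 clone below 1 CPM and the next between 4 and 8 CPM, the nearest at 7.81 CPM. By chromosome, chromosome 4 held 5 of the 20 peaks (25%), from 4 clones, against 5.28% of the peaks open in at least 12 libraries, chromosome 2 held 3 (15%, against 7.64%), and chromosomes 1, 5, 6, 9, 14, 16, 18 and 19 held none.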

How the data were processed

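The deposited table held raw read counts per merged peak, whole numbers that were not normalized; per the file headers it was made with featureCounts 1.5.3, and the build was mm10, per the submitters' processing notes, which also name DESeq2. No aligner, peak caller or rule for merging peaks is named in the sources used. A peak is listed if it was called in the merge, so DNA between peaks has no value. Columns carry clone names, which matched 1 sample title each, and 0 columns were left unmatched. Replicate numbers follow accession order.

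CPM is the count over the library total of tested peaks times the TMM factor, times 1000000, with no prior count. TMM factors and the test of T cell high against T cell low came from edgeR 4.0.16 in R 4.3.3 (filterByExpr by group, quasi-likelihood F-test, Benjamini-Hochberg adjustment), with DESeq2 1.42.0 as an alternative; no column pairs samples. Each library is a different clone in a different tumour, so p-values measure the spread between clones. Clones that share a number (6499c3 and 6499c4, 6419c1 and 6419c5) may come from 1 tumour of origin, which the labels do not state, and the tests treat all 13 as independent. On simulated counts of the same comparison, edgeR called 12 of 49 peaks changed 2-fold, 38 of 50 changed 4-fold and 50 of 50 changed 8-fold, and 8 of 55891 unchanged ones.

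A fragment may be counted at each of its ends, so Poisson intervals (95%) and the limit that 0 reads allow (3 reads) cover counting error only. The level expected in the closed clone is the median CPM of the other 12 clones. Genes are protein-coding RefSeq records of GRCm38.p6. Start sites and promoters come from the RefSeq promoter table of that assembly, which listed none on chromosome 18. Exons were not used here. All 20 closed peaks passed filterByExpr and all are named, with those at start sites, in runs and with the highest open level given most room. The rule, the members and the gene lists were chosen with earlier results of these data known. Alternatives changed the scaling, both thresholds, the depth, the run gap, the window and the libraries included.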

Additional observations from a re-analysis of the deposited data

Results flagged for a closer look

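In each group of 6 or 7 clones the gap between the extreme clone and the nearest other was set against the range of the group. For normally distributed values, the gap used as the limit is passed by chance in about 1 group in 20. Clone 6556c3, with 7 closed peaks, stood apart from the other T cell low clones, of which the next had 2. Such counts are small whole numbers that moved with depth, and 6556c3 is 1 of the 2 shallowest libraries. The rate of 1 in 20 therefore need not hold for them. The summed level of the Cdkn2a and Cdkn2b stretch was 6.18 CPM in 6694c2, with the next T cell low clone, 6556c3, at 238.0 CPM. The summed level of the Camta1 stretch was 7.46 CPM in 6499c4, with the next T cell high clone at 90.7 CPM. Both stretches were outlined by their low values in the clone named, so these gaps are descriptions.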

How the results depend on the processing

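The number of closed peaks changed with the settings. Against 20, it was 12 with total counts only, 11 with closed set below 0.5 CPM and 108 below 2 CPM, 344 with open set at 4 CPM and 3 at 16 CPM, 54 after thinning and 13 without the 2 shallowest libraries (added after the data were seen); DESeq2 size factors gave 17 and TMM without a filter 18. Leaving out 1 library gave 15 to 25, of which 11 to 20 were among the 20. Over the 8 settings that changed scaling, thresholds or depth, 2 of the 20 peaks, the Cdkn2b-side peak of 6694c2 and the one near Pitrm1 in 6556c3, met the rule in all; 12 met it under all 3 other scalings and 15 whichever other library was left out. Wfdc2 and Herc2 met it under none of these 3 scalings, and Camta1 under TMM without a filter alone. The share in runs was 0% with open at 16 CPM and 8.33 to 17.6% with 1 library left out. The difference in closed peaks per clone, T cell high minus T cell low, was -0.0714, and 1.9 with closed below 2 CPM, 11.2 with open at 4 CPM, 0.4 without the 2 shallowest libraries and -1.5 to 1.17 with 1 library left out, with no exact permutation p under 0.05 in any of these. The share with neighbours below 0.5 times the other clones was 15% within 200 kb and 0 to 4.76% with 1 library left out. DESeq2 called 48 peaks between the groups where edgeR called 0 (DESeq2 called 6 without 6555c3 and 517 without 2838c3, the lowest and highest with 1 library left out), and edgeR called 0 to 42 with 1 library left out, the 42 without 2838c3. For the values above the cause was not tested. No paired analysis was possible because replicate numbers only follow accession order. Depth limits the result: at 8 CPM the 2 shallowest libraries had 8.02 and 8.57 reads, and 3 reads stand for 2.99 and 2.80 CPM there, above the 1 CPM that defines a closed peak. The same holds in 3 more clones with closed peaks, where 3 reads stand for 1.85 CPM (6694c2), 1.3 CPM (6620c1) and 1.01 CPM (6499c3). In 2838c3 and 6499c4 they stand for 0.794 and 0.498 CPM.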
